A study of Mus musculus with 9 samples.

Results

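The cytosolic ribosomal protein genes encode the protein part of the ribosomes of the cytosol. In this series of mouse CD4+ T cells they were taken as every row whose gene symbol has the form of a ribosomal protein name, Rpl or Rps with a number and at most a short suffix, together with Rplp0, Rplp1, Rplp2 and Rpsa. The pattern found 87 of 39253 rows, 54 named for the large subunit and 33 for the small subunit. No measured value entered that choice. Of the 87, 81 had a mean of at least 10 CPM (counts scaled to a common library total) over the 9 libraries, 49 of them large-subunit and 32 small-subunit genes. The other 6 were the -like rows Rpl3l, Rpl6l, Rpl10l, Rpl32l, Rpl39l and Rps4l. Mitochondrial ribosomal proteins, pseudogene rows, and genes such as Fau and Rack1 have other symbols and were not members.

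The RNA came from CD4+ T cells of mice with experimental autoimmune encephalomyelitis (EAE), a model of multiple sclerosis driven by CD4+ T cells, on day 9. The 4 libraries labelled wildtype and the 5 labelled ERα KO, a knockout of estrogen receptor alpha (gene Esr1), were spread over batches 1 and 2. Batch 1 held wildtype 1 and 2 and knockout 1, 2 and 3, and batch 2 held wildtype 3 and 4 and knockout 4 and 5. All 9 libraries thus shared the disease model and the day, and there was no healthy or untreated group. The labels used here do not say in which cells the receptor was deleted, which part of Esr1 was removed, or the sex and age of the animals. Nothing says that libraries of a group came from separate animals, so p-values measure the spread between these libraries, which may be partly technical.

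Ribosomal proteins are needed in nearly equal numbers, because each ribosome carries about one copy of most of them. Their mRNAs belong to the TOP class: they begin with a C followed by an unbroken run of C and T, the 5′ terminal oligopyrimidine tract, through which mTORC1 signalling and the protein Larp1 control their translation. When a T cell is activated it enlarges its ribosome pool before dividing, and ribosomal protein mRNAs are among the most abundant in it.

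A start that opens such a tract is shown for 6 members. Of 55 members with a single annotated start, 12 had a C there with a C/T run of at least 5 bases. The 6 shown were picked from those 12. The windows run from 10 bases before the start to 19 bases past it, 5′ to 3′ in the gene's direction, and capitals mark the run of C and T from the start base. They were read from RefSeq promoter sequence of GRCm38.p6. Because they were picked for the tract, they illustrate it and do not show how common it is.
Rpl15: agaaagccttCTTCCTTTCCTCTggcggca
Rpl35: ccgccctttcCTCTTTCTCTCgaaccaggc
Rpl38: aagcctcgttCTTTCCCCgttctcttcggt
Rps10: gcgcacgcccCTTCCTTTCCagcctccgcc
Rps18: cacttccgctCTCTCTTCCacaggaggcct
Rps6: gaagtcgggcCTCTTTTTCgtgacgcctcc
These windows lie as follows: Rpl15 at chr14:18270967-18270996 on the minus strand, Rpl35 at chr2:39005112-39005141 on the minus strand, Rpl38 at chr11:114668570-114668599 on the plus strand, Rps10 at chr17:27635225-27635254 on the minus strand, Rps18 at chr17:33955646-33955675 on the minus strand, and Rps6 at chr4:86857348-86857377 on the minus strand. The runs differ in length and letters: 13 bases in Rpl15, 11 in Rpl35, 10 in Rps10, 9 in Rps18 and in Rps6, and 8 in Rpl38.

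RefSeq windows of 300 bases, 250 before the start and 50 from it, were found for 65 of the 87 members, giving 77 windows. A C at the start base with a C/T run of at least 5 bases stood in 14 of the 77 (18.2%), against 2.51% of all 32851 promoter windows. The letters CCGGAAG, the core bound by ETS factors, stood on either strand in 27 windows (35.1%, against 8.86% of all). AAGATGGC, a core of the YY1 motif, stood in 8 (10.4%, against 2.75%), and the GC box GGGCGG in 46 (59.7%, against 35.7%). TATAAA stood in 8 (10.4%, against 13.6%). These 4 motifs were searched on both strands, each counted once a window, and matches of different motifs may overlap. An annotated start can lie some bases from the start used in T cells, so these shares describe the annotation and are not sites of binding. No readout of these libraries bears on any one motif.

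Batch 1 had 4926350 to 11296600 counts per library and batch 2 had 45013000 to 69844700, so that 3 counts, the limit that a count of 0 allows, stood for 0.266 to 0.609 CPM in batch 1 and 0.0430 to 0.0666 CPM in batch 2. In batch 1, Esr1 read 4.87 and 16.2 CPM for the wildtypes against 9.58, 6.31 and 13.0 CPM for knockout 1, 2 and 3. In batch 2 it read 1.45 and 1.69 CPM against 0.143 and 0.256 CPM. In batch 1 the targeted gene therefore did not separate the labels, so the names wildtype and knockout are used here for libraries labelled so. Xist, expressed in female cells, was at 1745 to 2680 CPM in wildtype 1 and 2 and knockout 1 and 2, at 30.4 CPM in knockout 3, and at or below 0.289 CPM in batch 2. The Y-linked Ddx3y was at 55.4 CPM in knockout 3, at 93.6 to 107 CPM in batch 2, and at 0 in the other libraries, so knockout 3 differed from the rest of batch 1 in these genes. The 7 measured CD4 T cell markers, none at 0 in any library, summed in batch 1 to 3688 and 3453 CPM for the wildtypes against 3164, 3267 and 3014 CPM for the knockouts, and in batch 2 to 3852 and 4137 against 4435 and 4419.9 CPM. Neutrophil markers (5 genes, none at 0 in batch 1) summed in batch 1 to 655 and 253 CPM for the wildtypes against 885, 521 and 834 CPM for the knockouts, and to 4.28 to 156 CPM in batch 2, while the 5 red cell markers reached 1499 CPM in wildtype 3 and at most 128 CPM elsewhere.

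Members took 5.77% and 6.83% of all counts in wildtype 1 and 2 and 4.92%, 5.08% and 5.17% in knockout 1, 2 and 3. In batch 2 they took 6.29% and 5.47% in wildtype 3 and 4 and 6.97% and 6.51% in knockout 4 and 5. The labelled genotypes did not overlap in either batch, and their order was opposite: knockout was lower in batch 1 and higher in batch 2. The summed CD4 T cell markers were separate in both batches in the same order as the member share, and their part in it was not tested. Over the 9 libraries the share was 5.89% ± 0.783 (SD, n = 9). Fewer cells of a type and less RNA per cell cannot be told apart in such bulk shares.

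**Figure D1:**
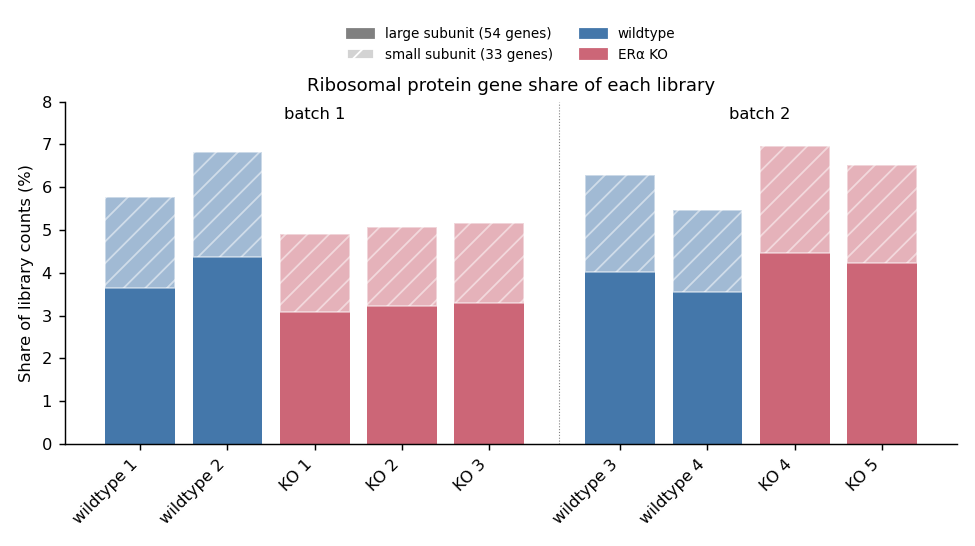
Share of library counts (%) in ribosomal protein genes for each of the 9 libraries, with bars stacked from the large (solid) and the small (hatched) subunit and coloured by labelled genotype. Knockout libraries of batch 1 sit lowest, at 4.92% to 5.17%, and knockout 4 is highest, at 6.97%.

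Both subunits moved together from library to library. Large-subunit genes took 3.65% and 4.37% in wildtype 1 and 2 and 3.09%, 3.23% and 3.29% in knockout 1, 2 and 3, and in batch 2 they took 4.02%, 3.55%, 4.47% and 4.22% in wildtype 3, wildtype 4, knockout 4 and knockout 5. Small-subunit genes took 2.12% and 2.45% in wildtype and 1.82%, 1.85% and 1.88% in knockout libraries of batch 1, and 2.28%, 1.92%, 2.50% and 2.29% in the same order in batch 2. Within each subunit the knockouts of batch 1 lay below both wildtypes, and those of batch 2 lay above both. The ratio of large- to small-subunit counts was 1.72 and 1.78 in wildtype and 1.70, 1.74 and 1.75 in knockout libraries of batch 1, and 1.77 and 1.85 against 1.79 and 1.84 in batch 2. That ratio overlapped between the labelled genotypes in both batches.

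Levels within the family were compared per kilobase of annotated transcript (GENCODE M21, median length over a gene's basic protein-coding transcripts), which could be done for 84 members. The gene models set this order in part, and so does the split of counts between a gene and its copies, since counts in pseudogene or retrogene rows are not in it. Rps24, a small-subunit protein, stood highest at 4255 ± 1088 CPM per kb (SD, n = 9), followed by Rpl13 at 3878 ± 892, Rpl21 at 1947 ± 545 and Rpl19 at 1802 ± 455 CPM per kb. The ranges over libraries of Rps24 and Rpl13 overlapped, as did those of Rpl21 and Rpl19, so the order inside each pair was within their spread. The median gene lay at 820 CPM per kb among 49 large-subunit and 881 CPM per kb among 32 small-subunit genes, and the middle 50% of each spanned 436 to 1199 and 481 to 1116. The bottom of the ranking held paralog rows: Rps27l at 36.8 ± 8.60, Rpl7l1 at 18.1 ± 3.78, and Rpl39l, Rpl10l and Rpl3l all below 1 CPM per kb on average.

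In batch 1, ribosomal protein genes were mostly lower in the knockout libraries, by a modest amount that no single gene carried past the threshold. Of 84 members tested (Rpl10l, Rpl32l and Rpl39l were under the count filter), 80 had a negative log2 fold change, knockout over wildtype, against 46.2% of all 24600 genes. The median was -0.38 over members, -0.39 for the large and -0.34 for the small subunit, and 0.042 over all genes. In CPM, 32 of the 84 lay below both wildtypes in every knockout library, beside a background of 5.19% of genes, and 3 (Rps14, Rpl8 and Rpl7l1) lay above, beside 10.9%. On CPM scaled by TMM factors, which ran from 0.837 in wildtype 1 to 1.27 in knockout 3, 48 members lay below (background 6.62%) and 0 above (background 7.98%). By edgeR's quasi-likelihood test 0 of 84 passed an adjusted p of 0.05 (background 0.126%, of which 0.0732% positive and 0.0528% negative). DESeq2 also called 0, beside 0.130% of genes. In edgeR 4 members had an unadjusted p under 0.05 (background 1.97%). That number was 24 of 84 with upper-quartile scaling (599 of 24600 genes) and 16 of 84 in DESeq2 (436 of 24600). It was 19 of 82 without knockout 3 (496 of 22292), but 1 of 82 without knockout 1 (297 of 23057) and 2 of 83 without knockout 2 (317 of 22692). With no filter on low counts it was 1 of 87 (998 of 36103). Neutrophil markers, the counts of the 1514 olfactory, vomeronasal and taste receptor genes (0.0577% and 0.154% of counts in wildtype, 0.112%, 0.102% and 0.256% in knockout) and depth differed between these 5 libraries too; their part in the lower values was not tested.

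In batch 2 the sign was the opposite. Of 82 tested members 76 had a positive log2 fold change, with a median of 0.15 over members (0.15 for the large and 0.17 for the small subunit), and -0.016 over all 15910 genes. Both knockout libraries lay above both wildtypes for 38 of 82 members, beside a background of 19.6% of genes, and below for 2, beside 20.5%. With TMM factors 34 lay above (background 19.8%) and 2 below (background 20.4%). The test with edgeR called 0 of 82 (background 0%), with 5 at an unadjusted p under 0.05, beside 7.77% of all genes. All 5 were positive (2.80% of all genes): Rpl13, Rpl21, Rps15, Rpl10a and Rpl19, of which the last 3 are named here after their values were seen. That number moved with each library left out, in fits that keep 1 library in a group. The median over members was 0.11 without knockout 4 and 0.21 without knockout 5. DESeq2 called 0 members and 329 genes in all. Wildtype 4 held the lowest level in batch 2 for 66 of 81 members and wildtype 3 for 11, so this comparison leaned on 1 library: without wildtype 4 the median fell to 0.0089. Without wildtype 3, the library with 1499 CPM of red cell markers, the median was 0.29 and edgeR called 3 members, Rpl5 (0.61, adjusted p = 0.0279), Rps28 (0.56, adjusted p = 0.0294) and Rpl36a (0.54, adjusted p = 0.0338), beside 268 of 16575 genes (1.62%). Without wildtype 4 it called 879 genes (5.21%) and 0 members. Mki67, a gene of dividing cells, read 2155 and 1036 CPM for these wildtypes against 441 and 708 CPM for the knockouts, and neutrophil markers summed to 156 and 15.8 against 4.28 and 6.52 CPM. The part of these differences in the higher member levels was not tested.

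**Figure D2:**
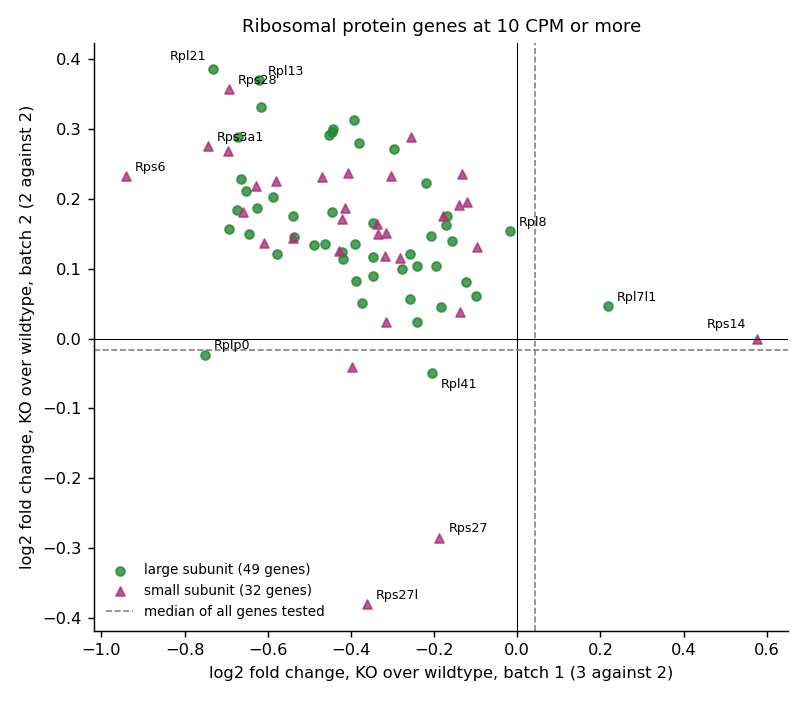
Log2 fold change, knockout over wildtype, of the 81 ribosomal protein genes at 10 CPM or more in batch 1 (x axis) against batch 2 (y axis), with circles for the large and triangles for the small subunit. Most points lie left of the dashed median of all genes in batch 1 (0.042) and above that in batch 2 (-0.016), while Rps27l and Rps27 lie low in batch 2.

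With both batches in one model, 64 of 82 members were negative and the median was -0.086, against 0.0090 for all 22197 genes; without wildtype 4 it was -0.19. None of the 82 passed in edgeR (background 0.00451%), the smallest adjusted p was 0.9996, and Rps27l alone had an unadjusted p under 0.05 (background 2.36%). No member had separate genotype groups in the same direction in both batches, beside 469 of 15288 genes (3.07%). Another 14 members lay below wildtype in batch 1 and above it in batch 2, beside 2.30% of genes. The difference between batches was tested as an interaction: 78 of 82 members were positive (batch 2 minus batch 1), with a median of 0.43 and -0.19 over all genes. In edgeR 0 of 82 passed that test (background 0.00451%). At an unadjusted p under 0.05 there were 29 members, all positive, beside 8.36% of genes in either direction and 1.75% positive, and the lowest adjusted p was 0.474 for Rpl36al. That number was 11 of 82 without knockout 1 (1691 of 24040 genes), 24 of 84 without knockout 2 (1728 of 24242) and 29 of 82 without knockout 3 (1598 of 23731). With no filter on low counts it was 1 of 87 (2870 of 36179), and with upper-quartile scaling 36 of 82 (1909 of 22197). Leaving out any other library left 1 library in a group of a batch, and the number fell each time. The median in those fits ran from 0.30 without wildtype 4 to 0.62 without wildtype 2. The opposite signs were therefore not shown to differ gene by gene at this size.

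The acidic stalk proteins Rplp0, Rplp1 and Rplp2 recruit the GTPase translation factors to the large subunit. Rplp0 was at 1408 and 1054 CPM in the wildtypes of batch 1, against 676, 721 and 1145 CPM in its knockouts. In unscaled CPM knockout 1 and 2 were low, but knockout 3 lay between the wildtypes. The TMM factor, by which values are divided, was 1.27 in knockout 3, 0.837 in wildtype 1 and 1.06 in wildtype 2. That overlap therefore need not hold after scaling. The log2 fold change on scaled counts was -0.75 ± 0.36 (SE), with an edgeR adjusted p of 0.999995. It was -0.34 without wildtype 1 and -1.12 without wildtype 2. In batch 2 it was at 1362 and 1170.1 against 1269 and 1222 CPM, with overlap and a log2 fold change of -0.023 ± 0.13. Rplp1 read 466 and 609.99 against 431, 413 and 449.98 CPM in batch 1 and 415 and 408 against 479 and 452 CPM in batch 2. For Rplp1 the groups were separate in both batches, with knockout low in the first and high in the second. Rplp2 overlapped in batch 1 (630.2 and 750.3 against 649, 585 and 752 CPM), so the stalk genes did not share one profile.

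Rpl5 and Rpl11 carry the 5S rRNA into the large subunit and, when unassembled, bind Mdm2. Rpl5 was at 2831 and 3109 CPM in the wildtypes of batch 1, against 2447, 2343 and 1419 CPM in its knockouts, and at 3063 and 2273 against 3489.7 and 3239 CPM in batch 2. The groups were separate both times and in opposite order, and knockout 3 was by far the lowest library. Rpl11 read 995 and 1141 against 766, 836 and 815 CPM in batch 1 and 1029.5 and 928 against 1146 and 1062 CPM in batch 2, also separate and in opposite order. Log2 fold changes in batch 1 were -0.62 ± 0.37 and -0.54 ± 0.36, and in batch 2 0.33 ± 0.18 and 0.18 ± 0.12, none of them past the edgeR threshold.

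Rpl13 and Rpl21 had the highest log2 fold changes of batch 2 among large-subunit genes. Rpl13 was at 2610.1 and 4310.3 CPM in the wildtypes of batch 1, against 2333, 2464 and 2457 CPM in its knockouts, a mean of 3460 ± 1202 (SD, n = 2) over one of 2418 ± 73.4 (SD, n = 3). In batch 2 it read 2926 and 2773 against 3753 and 3597 CPM. Its log2 fold change was -0.62 ± 0.35 in batch 1 and 0.37 ± 0.10 in batch 2 (edgeR adjusted p = 0.625). Rpl21 was at 1768 and 3288 CPM in the wildtypes of batch 1, against 1399.9, 1551 and 2012 CPM in its knockouts, and at 1963 and 1803 against 2585 and 2327 CPM in batch 2. In unscaled CPM, wildtype 2 stood far above the other libraries of batch 1 for both genes, and for Rpl21 the groups of batch 1 overlapped through knockout 3. Rpl38, whose loss in mice changes translation of Hox mRNAs and patterning of the skeleton, read 551 and 729.5 against 422, 476 and 433 CPM and then 530.02 and 493 against 562 and 570.4 CPM. Its groups were separate in both batches and in opposite order. Rpl8, at 875 and 829 against 922, 917 and 969 CPM in batch 1, was among the 3 members that lay higher in every knockout library there, though its scaled log2 fold change was -0.017 ± 0.36 and turned positive under upper-quartile scaling (0.065).

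Among small-subunit genes, Rps3a1 was at 1505 and 2089.6 CPM in the wildtypes of batch 1, against 1267, 1231 and 932 CPM in its knockouts, and at 1548 and 1266 against 1752 and 1655 CPM in batch 2. Knockout was below in the first and above in the second, with log2 fold changes of -0.74 ± 0.36 and 0.28 ± 0.15. Rps28 read 580.2 and 935 against 468, 487 and 574 CPM in batch 1 and 659.6 and 533 against 787 and 740.4 CPM in batch 2, again without overlap. The batch 2 log2 fold change of Rps28, 0.36 ± 0.15, was 0.17 without wildtype 4. Rps19, mutated in Diamond-Blackfan anaemia, read 476 and 538 against 414, 411 and 420.2 CPM, while in batch 2 (453 and 345 against 479 and 419.6 CPM) its groups overlapped. Rps25, used by viral internal ribosome entry sites, read 297 and 341 against 230.3, 234 and 263 CPM in batch 1 and 275 and 220.5 against 289 and 259 CPM in batch 2; the groups were apart in batch 1 and overlapped in batch 2. Rpsa, also known as the laminin receptor precursor, overlapped in both batches, at 1212 and 875 against 1159.5, 1133 and 857 and 1427 and 1179.8 against 1425 and 1252 CPM. Rps27a, made as a fusion with ubiquitin, overlapped in batch 1 (185 and 146 against 153, 146 and 118 CPM).

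Rps14 departed most from the family. Its level was 144 and 50.7 CPM in the wildtypes of batch 1, against 177, 174 and 153 CPM in its knockouts, and 153 and 102 against 143 and 112 CPM in batch 2. The single low value was wildtype 2, the library in which 45 of 81 members were highest within their batch. The log2 fold change in batch 1 was 0.58 ± 0.41, and without wildtype 2 it turned to -0.095, against 1.77 without wildtype 1.

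Once each library's median over members was taken out, most genes kept close to the family. The spread of these deviations within batches had a median SD of 0.16 log2 units over 81 members, and 53 of the 81 had an SD below 0.2. In plain CPM, before that median was removed, the highest library of batch 1 was wildtype 2 for 45 members, wildtype 1 for 20, knockout 3 for 12, knockout 1 for 3 and knockout 2 for 1. The lowest was knockout 1 for 33, knockout 3 for 33, knockout 2 for 9 and wildtype 2 for 6. In batch 2 knockout 4 was highest for 56 members, wildtype 3 for 12, knockout 5 for 10 and wildtype 4 for 3. Apart from Rps14 (-1.54 in wildtype 2), wide deviations were seen for Rpl5 (-0.67 in knockout 3), Rps6 (-0.59 in knockout 3), Rpl21 (0.58 in wildtype 2), Rpl19 (0.55 in knockout 3) and Rplp0 (0.48 in wildtype 1).

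**Figure D3:**
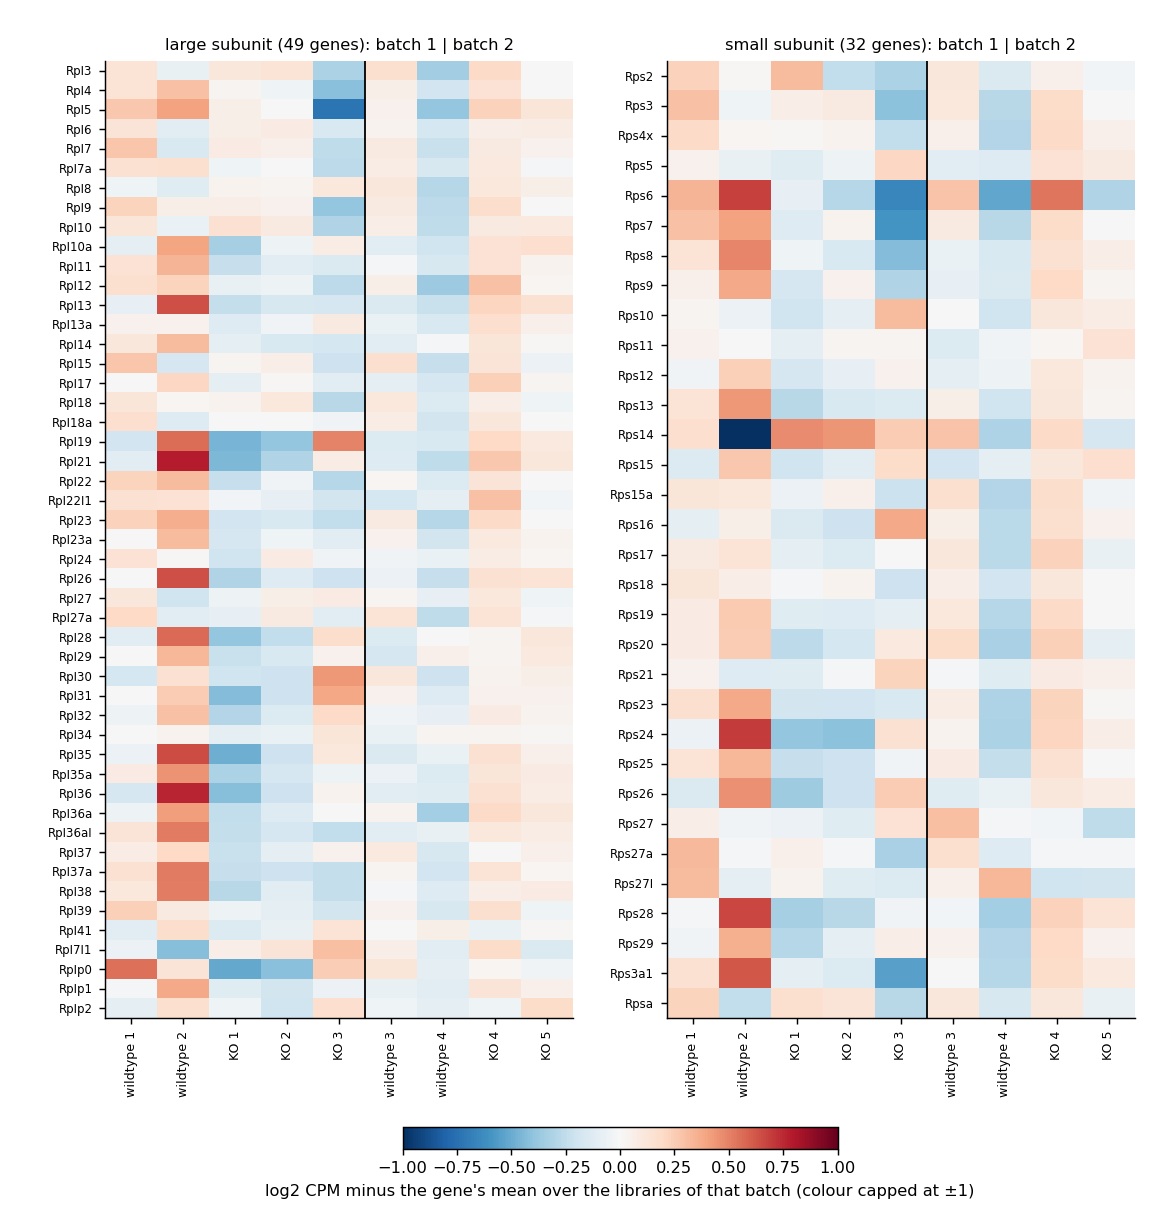
Level of each of 81 ribosomal protein genes in the 9 libraries, as log2 CPM minus the gene's mean over the libraries of that batch, large subunit left and small subunit right, with the colour scale capped at 1 log2 unit either way. Wildtype 2 is above the mean for most genes and wildtype 4 below it, while 6 genes are lowest of batch 1 in wildtype 2, among them Rps14 at 50.7 CPM.

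The X chromosome carries 4 members, which were read beside the Xist and Ddx3y levels given above. Rpl10, which joins the large subunit late near its active site, was at 677 and 594 CPM in the wildtypes of batch 1, against 692, 660.4 and 504 CPM in its knockouts, and at 834 and 666 against 844 and 851 CPM in batch 2. Its groups overlapped in batch 1, and in batch 2 knockout was above. Rps4x read 938 and 832 against 829, 843 and 692 CPM and 847 and 666 against 934 and 845 CPM. Rpl36a read 332 and 459 against 289.6, 314 and 344 CPM and 373 and 287 against 415 and 394 CPM. Both overlapped in batch 1, and in batch 2 only Rpl36a was separate, with knockout above. Rpl39, a protein of the nascent-chain exit tunnel, read 289.6 and 262 against 237, 231 and 217 CPM and 238 and 207 against 257 and 224 CPM, below wildtype in batch 1 and overlapping in batch 2. Log2 fold changes of the 4 ranged from -0.45 (Rpl36a) to -0.17 (Rpl10) in batch 1 and from 0.11 (Rpl39) to 0.29 (Rpl36a) in batch 2, the signs of the medians over members. Knockout 3, with 30.4 CPM of Xist, was the lowest of its batch for Rpl10, Rps4x and Rpl39 and not for Rpl36a.

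Ribosomal protein genes have many processed copies in the mouse genome, and 33 rows of the table were matched as copies to 21 members. Their product names read pseudogene, retrogene, retrotransposed or -like, and a -like name alone does not say that a row is a processed copy. Together they took 0.263% to 0.369% of counts. For some members the copy row held most of the counts that the pair shared. Rps6, the substrate of S6 kinase used as a readout of mTORC1, had 87.0 and 110.02 CPM in the wildtypes of batch 1, against 64.6, 56.2 and 43.6 CPM in its knockouts and 72.3 and 41.5 against 86.2 and 48.2 CPM in batch 2. The row Rps6-ps4 had 1279.8 and 1494 against 1054, 1146 and 970.2 CPM and 1337 and 1137 against 1532 and 1479 CPM, which was 93.1% to 96.8% of the pair's counts in every library. Both rows were lower in each knockout than in each wildtype of batch 1, and only the copy row was separate in batch 2. The log2 fold change of the Rps6 row in batch 1, -0.94 ± 0.37, was the lowest among members, and it rests on the small part of counts assigned to that row. With the copy rows added it was -0.54, above Rplp0 and Rps3a1.

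**Figure D4:**
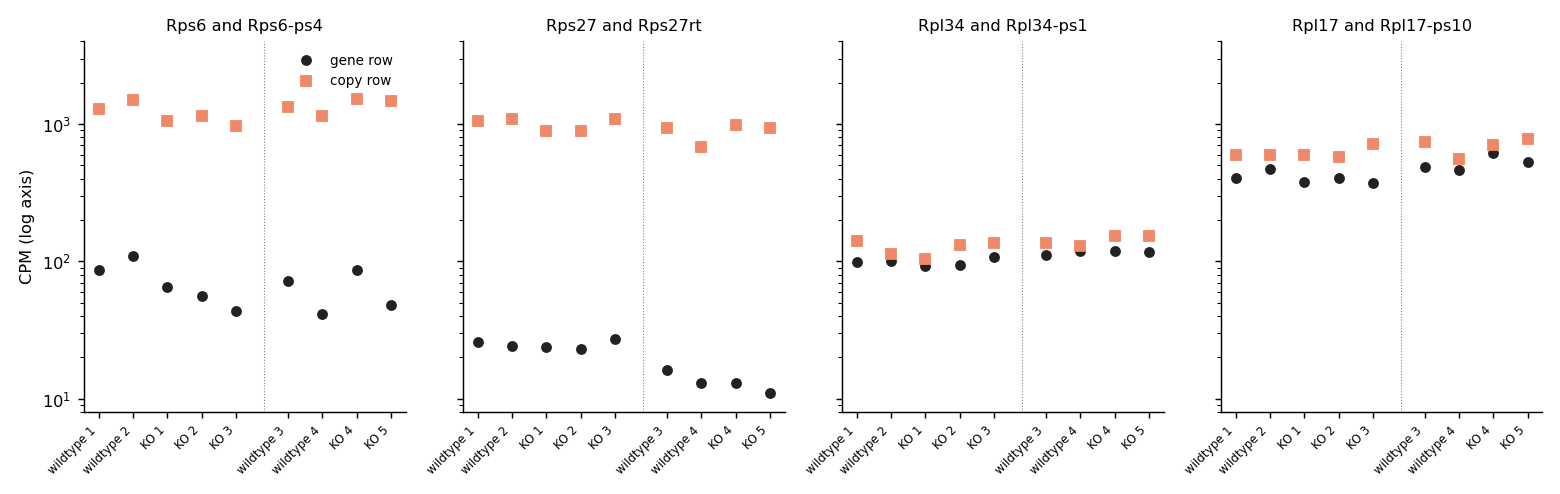
CPM (log axis) of the gene row and the copy row for Rps6, Rps27, Rpl34 and Rpl17 in each of the 9 libraries, 1 point a library and row. The copy row lies far above the gene row for Rps6 and Rps27 and close to it for Rpl34 and Rpl17.

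Rps27 was split still more unevenly: its own row had 25.9 and 24.2 CPM in the wildtypes of batch 1, against 23.8, 22.8 and 27.4 CPM in its knockouts, and the retrogene Rps27rt held 97.4% to 98.8% of the pair's counts. In batch 2 the Rps27 row read 16.2 and 13.0 against 12.9 and 11.0 CPM, a log2 fold change of -0.29 ± 0.22. With the Rps27rt counts added the levels were 957 and 691 against 992 and 948 CPM and the log2 fold change turned to 0.23. Rpl17-ps10 held 53.6% to 65.7% of the counts it shared with Rpl17, and Rpl34-ps1 held 52.1% to 58.7% of those shared with Rpl34; these pairs were named after their values were seen. For Rpl14 the share in Rpl14-ps1 was 0% in wildtype 4, 0.831% in knockout 3 and 1.28% in wildtype 2, and 10.2% to 19.9% in the other 6 libraries. Which of 2 near-identical rows a read came from is uncertain, so the level of Rps6, Rps27, Rpl17, Rpl34 or Rpl14 alone is uncertain too.

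Paralogs that can replace a ribosomal protein were followed as counts of the paralog per 100 counts of its parent in the same library, which tracks libraries and does not rank the genes. Rpl22 is needed for development of alpha-beta T cells, and Rpl22l1 is its close relative. The Rpl22 level was 394 and 421 CPM in the wildtypes of batch 1, against 288, 329.7 and 277 CPM in its knockouts, without overlap, and 427 and 383 against 460.01 and 420.1 CPM in batch 2. Rpl22l1 read 60.0 and 59.7 against 53.1, 51.1 and 47.5 CPM and 32.7 and 34.7 against 45.3 and 36.2 CPM. The paralog share was 15.2 and 14.2 in wildtype and 18.4, 15.5 and 17.2 in knockout libraries of batch 1, and 7.66 and 9.04 against 9.85 and 8.62 in batch 2. Every library of batch 1 lay above every library of batch 2, and in batch 1 each knockout was above both wildtypes. Between batches Rpl22 rose by 0.53 ± 0.14 (edgeR adjusted p = 0.00736), while the log2 difference of Rpl22l1 was -0.33 ± 0.14 (edgeR adjusted p = 0.0575).

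**Figure D5:**
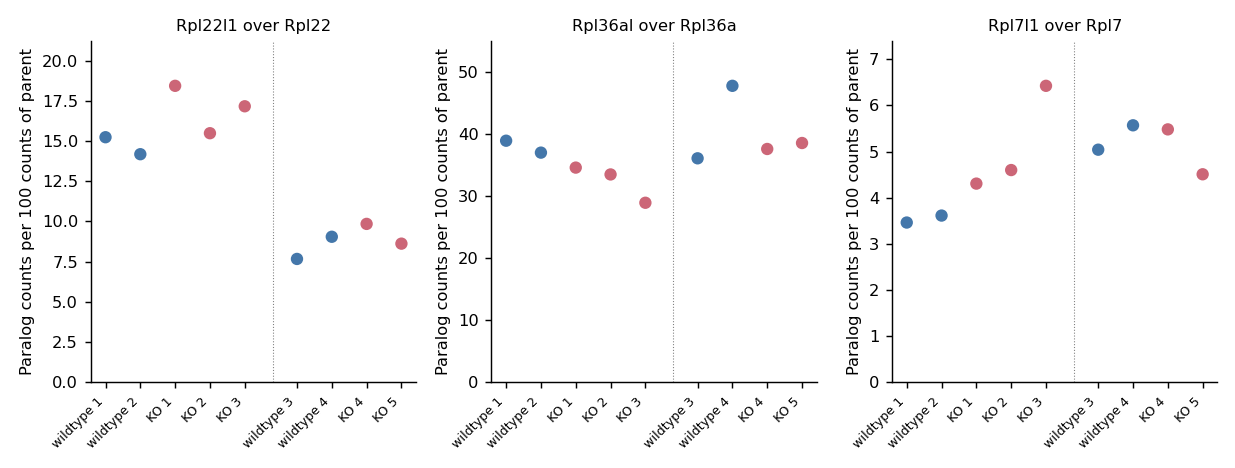
Counts of Rpl22l1, Rpl36al and Rpl7l1 per 100 counts of the parent gene in each of the 9 libraries, 1 point a library, y axes from 0. The Rpl22l1 share separates the batches, at 14.2 to 18.4 in batch 1 and 7.66 to 9.85 in batch 2.

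Rpl36al, a relative of Rpl36a, stood at 39.0 and 37.1 per 100 Rpl36a counts in wildtype and 34.6, 33.5 and 29.0 in knockout libraries of batch 1. The knockouts were below both wildtypes there, whereas in batch 2 (36.1 and 47.8 against 37.6 and 38.6) they lay between them. Rpl7l1 stood at 3.46 and 3.61 per 100 Rpl7 counts in wildtype and 4.30, 4.60 and 6.42 in knockout libraries of batch 1, and at 5.04 and 5.57 against 5.48 and 4.51 in batch 2. The batch 1 groups of Rpl7l1 were separate with knockout above, in CPM as well (29.0 and 22.5 against 31.7, 33.1 and 37.3), and without wildtype 2 its log2 fold change of 0.22 ± 0.36 turned to -0.12. Rps27l, a p53-responsive relative of Rps27, read 20.8 and 15.6 against 17.2, 15.4 and 15.2 CPM in batch 1 and 23.9 and 29.1 against 20.1 and 20.4 CPM in batch 2. Knockout was below both wildtypes in batch 2 only, and with both batches the log2 fold change was -0.32 ± 0.14 (edgeR, unadjusted p = 0.0464, adjusted p = 0.9996); without wildtype 2 it was -0.54. The paralogs known from testis or muscle were low. Rpl10l and Rpl3l had 0 counts in all 4 libraries of batch 2, which allows up to 0.0430 to 0.0666 CPM. In batch 1 both had counts in every library, at 0.354 to 1.58 CPM for Rpl10l and 0.230 to 1.58 CPM for Rpl3l. Rpl39l stayed at or below 1.42 CPM.

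More members passed the test between batches than between labelled genotypes. With genotype in the model, 41 of 82 members were higher in batch 2 and 1, Rps27, was lower by edgeR's adjusted p of 0.05, beside a background of 16.8% of genes higher and 47.3% lower (64.1% in all). The median was 0.41 over members (0.43 for the large and 0.31 for the small subunit) and -0.76 over all genes. By subunit, 30 of 49 large-subunit genes rose, and of 33 small-subunit genes 11 rose and 1 fell. Rpl13a, also part of the GAIT complex that silences inflammatory mRNAs, was at 833 and 832 CPM in the wildtypes of batch 1 and 738, 788 and 859 CPM in its knockouts, and in batch 2 at 1095 and 1028 and at 1286 and 1188 CPM. Every batch 2 library was above every batch 1 library, with a log2 difference of 0.73 ± 0.11 (edgeR adjusted p = 0.000252). The short basic protein Rpl41 rose by 0.61 ± 0.10 (edgeR adjusted p = 0.00038), Rps12 by 0.63 ± 0.12 (0.000715), Rpl7l1 by 0.69 ± 0.14 (0.00112), Rpl7a by 0.64 ± 0.13 (0.00121) and Rpl34 by 0.46 ± 0.09 (0.00122). Upper-quartile scaling left 13 of 82 members called, 11 of them higher, beside 56.3% of all genes, and 62 positive. Without knockout 4 the number called was 23 of 82, beside 54.3% of genes. The Rps27 row is the one that shares its counts with Rps27rt, as given above. Depth, sex-linked genes, receptor counts (0.0577% to 0.256% against 0.0026% to 0.0037%) and the number of genes detected (32046 to 34085 against 17008 to 18309) all separated the batches, or nearly so, and cannot be told apart from them.

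Genes that work with the ribosomal proteins were read from 4 lists. All 27 listed translation factors and other TOP mRNA genes were tested: 27 of 27 were negative in batch 1 (median -0.40) and 22 were positive in batch 2 (median 0.11). By edgeR 19 were higher in batch 2 than in batch 1, beside a background of 16.8% of genes. This list also holds Fau and Rack1, whose symbols lie outside the naming pattern. Fau, the precursor of a small-subunit protein, read 471 and 568 against 407, 425 and 426 CPM and 490.3 and 469 against 559 and 514 CPM. Rack1, a scaffold on the small subunit, read 1022 and 986 against 867, 879.8 and 721 CPM and 1096 and 977 against 1236 and 1165 CPM. Both were below wildtype in batch 1 and above it in batch 2 in every library. The translation-linked genes Btf3 (nascent chain binding) and Pabpc1 (poly(A) binding) had log2 fold changes of -0.54 ± 0.36 and -0.54 ± 0.36 in batch 1 and -0.077 ± 0.10 and -0.20 ± 0.20 in batch 2, where they stayed negative. They were named for a small p in the fit over both batches, which favours genes with the same sign in both.

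Of 56 ribosome biogenesis genes, 52 were negative in batch 1 (median -0.28) and 43 positive in batch 2 (median 0.093). Ncl, the nucleolar protein nucleolin, read 785 and 1226 against 680.3, 683 and 545 CPM in batch 1 and 694 and 655 against 776 and 679 CPM in batch 2. The groups were apart in batch 1 and overlapped in batch 2. Taf1d, a subunit of the RNA polymerase I selectivity factor, was lower in every knockout than in every wildtype of its batch, at 235 and 219 against 183, 204 and 155 CPM and 264 and 316 against 211 and 215 CPM. Of all genes, 469 of 15288 (3.07%) were separate in the same direction in both batches. The log2 fold change of Taf1d over both batches was -0.41 ± 0.12 (edgeR adjusted p = 0.9996). It was named for the smallest p of its list in that fit, a choice that favours the same direction in both batches. Of 21 genes of mTORC1 and TOP control, 14 were negative in batch 1 (median -0.064) and 12 positive in batch 2 (median 0.011). Of 78 mitochondrial ribosomal protein genes, 64 were negative in batch 1 (median -0.27) and 45 positive in batch 2 (median 0.029). None of these 4 lists had a gene past the edgeR threshold in a genotype or interaction test. Between batches, 25 biogenesis genes, 9 control genes and 36 mitochondrial ribosomal genes were higher in batch 2, beside a background of 16.8% of genes. In the same order 0, 1 and 1 were lower, beside 47.3% of genes.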

How the data were processed

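RNA-seq of 9 CD4+ T cell libraries was used (4 labelled wildtype, 5 labelled ERα KO). The authors deposited 1 table of estimated counts per gene, all with fractional parts. The submitters' processing notes name Salmon 1.2.0, R 4.0.3 and build GRCm39; the sources used here do not give the other steps. Counts were rounded, and CPM is the rounded count scaled by the library total. Genes passing edgeR's filterByExpr (minimum count 10, minimum total 15) were fitted with edgeR 4.0.16 (TMM, robust quasi-likelihood test, R 4.3.3) within each batch, over both batches with batch as a term, and as an interaction, and p-values were adjusted over all genes tested (Benjamini-Hochberg). DESeq2 1.42.0, other scalings, no filter, a replicate block and leaving out each library were alternatives. Adding copy rows to their parents was chosen after seeing the data. The script was tested on simulated counts. No 2 libraries of a group agreed within sampling noise (chi-square per degree of freedom of at least 4.27).

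Named genes were a fixed set of stalk, 5S, X-linked and paralog members, up to 6 called members by smallest p per test, the 3 highest and 3 lowest fold changes per batch among members at 10 CPM or more, members separate in the same direction in both batches, and up to 4 genes per list. Apart from Fau and Rack1, the list genes were taken by the smallest p of the fit over both batches. Members and lists were chosen with earlier results of these data known. Protein sequences were not used here. The limits of 3 counts cover counting error only.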

Additional observations from a re-analysis of the deposited data

Results flagged for a closer look

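The named members, the member share and the ratio of large to small subunit were checked, in each labelled genotype over both batches, for a single library far from the others. Of the 80 groups tested 2 stood out. For independent groups of like libraries chance flags about 1 in 20, which gives 4. These groups pool both batches and members move together, so that rate need not hold here. A library far off within its batch can also be missed. Rps14 in wildtype 2, at 50.7 CPM against 102 to 153 CPM in the other wildtypes, was not flagged. Rpl21 in wildtype 2 was at 3287.83 CPM, against 1768 to 1963 CPM in the other 3 wildtype libraries. Rps19 in knockout 4 was at 479.485 CPM, against 411 to 420 CPM in the other 4 knockout libraries.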

How the results depend on the processing

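The number of members called was 0 under every alternative of the genotype and interaction tests except batch 2 without wildtype 3 (3 called, beside 1.62% of all genes), so that leaving out 1 library gave 0 to 3 there. Leaving out 1 library gave a median log2 fold change of -0.19 to -0.081 over both batches, -0.50 to -0.29 in batch 1 and 0.0089 to 0.29 in batch 2. It gave 23 (without knockout 4, beside 54.3% of all genes) to 62 (without wildtype 4, beside 64.9%) members called between batches. The set of genes tested changes with the groups left. Over both batches the median was -0.19 with no filter. In batch 1 it was -0.51 with DESeq2 size factors and -0.51 with the DESeq2 Wald test; relative to the median of all genes it stayed at -0.42 in 3 scalings, TMM, upper-quartile and DESeq2's. Upper-quartile scaling left 13 members called between batches, beside 56.3% of all genes.

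Replicate numbers are shared between genotypes but number 3 crosses the batches, and the deviations of same-numbered libraries correlated at 0.43, -0.45, -0.083 and -0.13 for numbers 1 to 4, so the numbers were not taken as pairs; 1 of 9 libraries, knockout 1, correlated best with its own number. With the replicate block the batch 1 median was -0.24 and 16 of 82 members were called between batches, beside 42.7% of all genes. No paired analysis was possible within batch 2 because its groups share only number 4.

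Among named members, Rpl22l1 over both batches turned from -0.028 to 0.0017 with the replicate block, 0.035 without wildtype 1 and 0.012 without knockout 3. Rpl8 in batch 1 turned to 0.065 with upper-quartile scaling, 0.10 with the replicate block, 0.19 without wildtype 1 and 0.067 without knockout 3. Leaving out 1 library gave -0.18 to 0.035 for Rpl22l1 over both batches and, in batch 1, -0.12 (without wildtype 2) to 0.60 for Rpl7l1 and -0.095 (without wildtype 2) to 1.77 (without wildtype 1) for Rps14. Rps27 in batch 2 turned to 0.23 with copy rows added. The causes were not tested. Depth limits the low paralogs: 3 counts are 0.609 CPM in wildtype 2.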
